A study of Homo sapiens with 15 samples.

Results

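The genes of MHC class I antigen presentation were followed in LNCaP cells, an androgen-sensitive human prostate cancer line, as the 8 rows of the expression table named HLA-B, HLA-C, HLA-E, B2M, TAP1, TAP2, TAPBP and ERAP1. All 8 named genes were found among the 17272 genes of the table. RNA was sequenced from 5 libraries of cells given 1 nM R1881, a synthetic androgen, together with 2 µM darolutamide, an androgen receptor inhibitor, and from 10 libraries of cells given 1 nM R1881 with the solvent DMSO. Before treatment the cells spent 48 h in medium with charcoal-stripped serum, which holds little steroid, and they were harvested 22 h after it. The groups follow the sample labels, whereas the methods of the study swap the group sizes and give another R1881 concentration. The labels number the darolutamide libraries 86 to 90 and the R1881 libraries 51 to 55 and 71 to 75, so no run of numbers holds both treatments and treatment and run cannot be told apart. The libraries came from a single cell line without immune cells, and no protein was measured.

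Class I molecules carry peptides from inside the cell to its surface, where CD8 T cells and natural killer cells read them. A heavy chain such as HLA-B or HLA-C pairs with the invariant light chain B2M in the endoplasmic reticulum. The TAP1-TAP2 transporter delivers peptides cut by the proteasome, tapasin (TAPBP) holds the empty heavy chain at the transporter, and the aminopeptidase ERAP1 trims the peptides to length. HLA-E is a non-classical heavy chain that presents peptides from the leader sequences of other class I chains to the NKG2A and NKG2C receptors of natural killer cells. In many cell types interferon and NF-kappaB raise these genes together, through elements in their promoters, and NLRC5 acts on the heavy-chain and B2M promoters.

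The promoters of 5 of the genes are shown, with elements by which the pathway is known to be controlled. ERAP1 and TAP2 also held such matches but are not printed. Each run holds the 200 bases before the RefSeq start of the gene in GRCh38.p14, read along the strand of the gene, and all were identical to the reference genome used here. Capitals mark matches to the interferon-stimulated response element, spelled GAAANNGAAA or in a shorter form GAANNGAAA, and to the NF-kappaB consensus, on either strand; overlapping matches run together.
B2M: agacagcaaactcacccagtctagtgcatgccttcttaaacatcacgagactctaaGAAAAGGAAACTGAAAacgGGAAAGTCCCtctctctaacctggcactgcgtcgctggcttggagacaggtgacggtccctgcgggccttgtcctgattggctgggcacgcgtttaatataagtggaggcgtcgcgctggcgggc
HLA-B: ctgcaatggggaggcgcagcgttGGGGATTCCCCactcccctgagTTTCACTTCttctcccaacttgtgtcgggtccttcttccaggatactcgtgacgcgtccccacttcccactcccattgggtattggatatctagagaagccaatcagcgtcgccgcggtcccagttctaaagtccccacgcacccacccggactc
HLA-C: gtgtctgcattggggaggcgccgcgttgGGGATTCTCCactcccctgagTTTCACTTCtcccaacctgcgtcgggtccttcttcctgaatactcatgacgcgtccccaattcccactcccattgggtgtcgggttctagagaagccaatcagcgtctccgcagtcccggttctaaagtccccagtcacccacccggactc
TAP1: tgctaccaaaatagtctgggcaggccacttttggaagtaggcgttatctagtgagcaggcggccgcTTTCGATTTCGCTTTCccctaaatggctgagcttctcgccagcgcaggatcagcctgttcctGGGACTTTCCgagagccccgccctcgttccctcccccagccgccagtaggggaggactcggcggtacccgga
TAPBP: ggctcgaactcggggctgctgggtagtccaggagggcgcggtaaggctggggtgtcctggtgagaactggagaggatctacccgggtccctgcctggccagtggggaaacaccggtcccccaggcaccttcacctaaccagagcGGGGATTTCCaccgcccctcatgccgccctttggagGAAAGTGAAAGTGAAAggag
The stretches lie at chr15:44711317-44711516 on the plus strand for B2M, and on the minus strand at chr6:31357180-31357379 for HLA-B, chr6:31272093-31272292 for HLA-C, chr6:32853705-32853904 for TAP1 and chr6:33314079-33314278 for TAPBP.

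A window of 300 bases, with 250 before and 50 after the start, was searched in the 7 genes with an entry (all but HLA-E) and in all 35116 RefSeq windows. GAAANNGAAA was found in the windows of B2M, ERAP1, TAP1, TAP2 and TAPBP, and in 3.57% of all windows. GAANNGAAA was found in HLA-B, HLA-C and TAP2, and in 7.66% of all windows. The NF-kappaB consensus was found in 6 of the 7 windows (not in TAP2) and in 11.3% of all windows. HLA-B, HLA-C and B2M each held CCAAT and TGACG, the cores of the Y and X2 boxes of class I promoters, which were found in 34.6% and 24.6% of all windows. The androgen receptor hexamer AGAACA was found in none of the 7 windows and in 14.8% of all windows, and the full palindrome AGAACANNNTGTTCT in none of the 7 and in 0.00285%. A match describes letters in a window and is not evidence of a bound site.

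B2M, the light chain, was lower with darolutamide, and HLA-E, ERAP1, TAP1 and TAPBP were higher. HLA-B, HLA-C and TAP2 did not pass the test. So 4 of the 8 genes were called higher and 1 was called lower by limma with a trend, run on log2(CPM + 0.5), at a Benjamini-Hochberg adjusted p under 0.05 over all genes. Of all 17272 genes, 22.8% were called higher and 23.7% lower, so that calls were common in this comparison. With the reads scaled by library totals alone, 5326 of all genes (30.8%) were higher and 3030 (17.5%) were lower, against 3946 and 4098 in the deposited scaling, and 6 of the 8 genes were higher and 1 was lower. The 8 genes had a median of 0.23 on the log2 scale, beside 0.00 over all genes, and 0.14 without darolutamide replicate 4, beside -0.02. Fewer cells with a transcript and less of it per cell cannot be told apart in bulk RNA.

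The libraries held 15830745 to 25317567 reads each, and the 6 androgen-induced check genes, among them FKBP5 and TMPRSS2, were all lower with darolutamide (log2 fold changes of -3.30 to -0.83). None of 10 leukocyte markers was listed in the table, while 3 of 6 fibroblast markers were listed and all 3 were higher (2 without darolutamide replicate 4). Their summed level was 13.5 to 30.6 CPM with darolutamide and 6.36 to 10.5 CPM with R1881. The call of COL1A1 was lost under 13 alternative settings, and LUM had a mean of only 0.50 CPM with darolutamide and 0.21 CPM with R1881. Calls over all genes were 22.8% higher and 23.7% lower. Among 10 luminal prostate markers 6 were lower and 2 higher (3 without darolutamide replicate 4). Darolutamide replicate 4 differed from the rest of its group in genes of high GC content. The slope of its log2 values on GC content was 0.36 per 10 percentage points, against -0.25 to -0.02 in the other darolutamide libraries and -0.13 to 0.24 in the R1881 libraries.

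**Figure D1:**
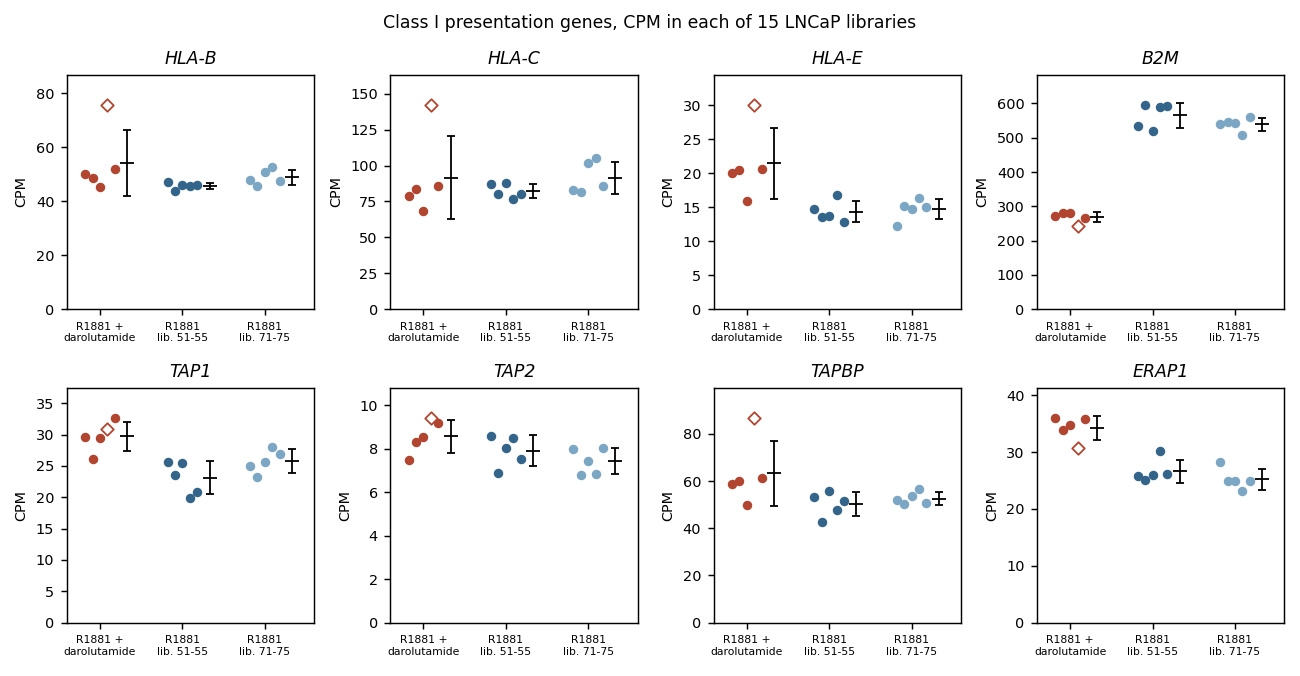
CPM (counts scaled to library size) of the 8 genes in each library, with R1881 and darolutamide on the left, then R1881 libraries 51 to 55 and 71 to 75; points are libraries, the open diamond is darolutamide replicate 4, and the black mark is the mean ± SD of 5 libraries. B2M lay between 244 and 282 CPM with darolutamide and between 509 and 595 CPM with R1881, and the open diamond is the highest darolutamide point for HLA-B, HLA-C, HLA-E and TAPBP.

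B2M, the light chain shared by all class I molecules of the cell, lies on chromosome 15 from 44711358 to 44718851 (GENCODE version 44, GRCh38). It had 273, 280, 282, 244 and 265 CPM in darolutamide replicates 1 to 5, against a lowest value of 509, a median of 544 and a highest of 595 CPM in the R1881 libraries. Every darolutamide library lay below every R1881 library, a separation seen in that direction in 12.6% of all genes. The mean was 269 ± 15.3 CPM with darolutamide (SD, n = 5) and 553 ± 30.7 CPM with R1881 (SD, n = 10). The log2 fold change was -1.04 (SE 0.04; limma adjusted p = 1.02e-12), and 324 of the 17272 genes, B2M included, fell by as much or more. B2M was also the most deeply read of the 8 genes, with 5167 to 6910 reads per darolutamide library and 7988 to 13411 per R1881 library. Over the 29 alternative settings and left-out libraries its log2 fold change stayed between -1.07 and -0.97, past the test in each.

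HLA-E, the non-classical heavy chain, lies on chromosome 6 from 30489509 to 30494194. It had 20.1, 20.5, 15.98, 30.0 and 20.7 CPM in darolutamide replicates 1 to 5, against a lowest value of 12.2, a median of 14.8 and a highest of 16.8 CPM in the R1881 libraries. Replicate 4 was the highest and replicate 3 alone fell within the R1881 range. HLA-E was higher by 0.52 on the log2 scale (SE 0.11; limma adjusted p = 0.000634), and 0.40 without replicate 4 (adjusted p = 0.00062). Of the 50-base stretches in its exons, 6.16% also occurred in another gene, most often in HLA-G.

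HLA-B and HLA-C, the classical heavy chains that present peptides to CD8 T cells, lie next to each other on chromosome 6, from 31353872 to 31367067 and from 31268749 to 31272130. HLA-B had 50.0, 48.7, 45.2, 75.6 and 51.8 CPM in darolutamide replicates 1 to 5, against a lowest value of 43.7, a median of 46.5 and a highest of 52.7 CPM with R1881. HLA-C had 78.5, 83.6, 68.3, 142 and 85.4 CPM in the same darolutamide libraries, against 76.7, 84.6 and 105 CPM as the lowest, median and highest of the R1881 libraries. Apart from replicate 4, the darolutamide values of HLA-B all lay within the range of the R1881 libraries, and those of HLA-C lay within it or, in replicate 3, below it.

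The log2 fold change of HLA-B was 0.17 (95% interval -0.01 to 0.36; limma adjusted p = 0.109), and without replicate 4 it was 0.05 (adjusted p = 0.411). With a correction for GC content it was 0.23 and passed the test (adjusted p = 0.000327), as it did without replicate 3 (0.23, adjusted p = 0.0383). The log2 fold change of HLA-C was 0.03 (95% interval -0.23 to 0.29; limma adjusted p = 0.856), and it turned to -0.14 without replicate 4 (adjusted p = 0.138). With the GC correction HLA-C was higher by 0.08 (adjusted p = 0.017). HLA-C also had a negative value against R1881 libraries 71 to 75 alone (-0.04) and with voom quality weights (-0.05), neither past the test, and HLA-B also passed with library totals (0.25, adjusted p = 0.0226). Counting could also split reads among heavy chains, since 2.56% of the 50-base stretches of HLA-B and 6.76% of those of HLA-C occur in another gene, and the alleles of the cell line may differ from the reference, which was not tested.

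TAP1 and TAP2 encode the subunits of the peptide transporter and lie on chromosome 6, from 32845209 to 32853816 and from 32821833 to 32838739. TAP1 had 29.6, 26.1, 29.4, 30.9 and 32.6 CPM in darolutamide replicates 1 to 5, against a lowest value of 19.9, a median of 25.2 and a highest of 28.1 CPM with R1881. All darolutamide libraries but replicate 2 lay above the R1881 range. The log2 fold change of TAP1 was 0.28 (SE 0.08; limma adjusted p = 0.00526), and 0.26 without replicate 4 (adjusted p = 0.00963). TAP2 had 7.46, 8.29, 8.54, 9.38 and 9.17 CPM with darolutamide, against 6.77, 7.74 and 8.56 CPM as the lowest, median and highest with R1881. Its log2 fold change was 0.15 (95% interval 0.00 to 0.31) with an adjusted p of 0.0917 from limma. TAP2 was the most thinly read of the 8 genes, at 187 to 205 reads per darolutamide library and 118 to 182 per R1881 library, and 35.3% of its 50-base stretches fall in another annotated gene that overlaps it. The ratio of TAP1 to TAP2 reads was 3.48 ± 0.31 with darolutamide (SD, n = 5) and 3.22 ± 0.47 with R1881 (SD, n = 10), a difference that did not pass (exact permutation test, two-sided, adjusted p = 0.323 over 8 ratios).

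TAPBP, or tapasin, which bridges the heavy chain and the transporter, lies on chromosome 6 from 33299694 to 33314284. It had 58.6, 60.2, 49.8, 86.6 and 61.4 CPM in darolutamide replicates 1 to 5, against a lowest value of 42.8, a median of 51.7 and a highest of 56.9 CPM with R1881. All darolutamide libraries but replicate 3 lay above the R1881 range. TAPBP was higher by 0.28 on the log2 scale (SE 0.09; limma adjusted p = 0.0206) and 0.16 without replicate 4 (adjusted p = 0.0485), so this library moved the value by more than 1.5 times. TAPBP did not pass against R1881 libraries 51 to 55 alone (0.31, adjusted p = 0.0628) or 71 to 75 alone (0.24, adjusted p = 0.129).

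ERAP1, the aminopeptidase that trims peptides in the endoplasmic reticulum, lies on chromosome 5 from 96760810 to 96808100. It had 35.9, 33.97, 34.8, 30.7 and 35.9 CPM in darolutamide replicates 1 to 5, against a lowest value of 23.2, a median of 25.4 and a highest of 30.1 CPM with R1881. Every darolutamide library lay above every R1881 library, as in 10.8% of all genes, although replicate 4 was close to the highest R1881 value. ERAP1 was higher by 0.40 on the log2 scale (SE 0.06; limma adjusted p = 1.49e-05) and 0.43 without replicate 4 (adjusted p = 3.27e-06). ERAP2, its close relative, did not pass (log2 fold change 0.08, limma adjusted p = 0.532).

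**Figure D2:**
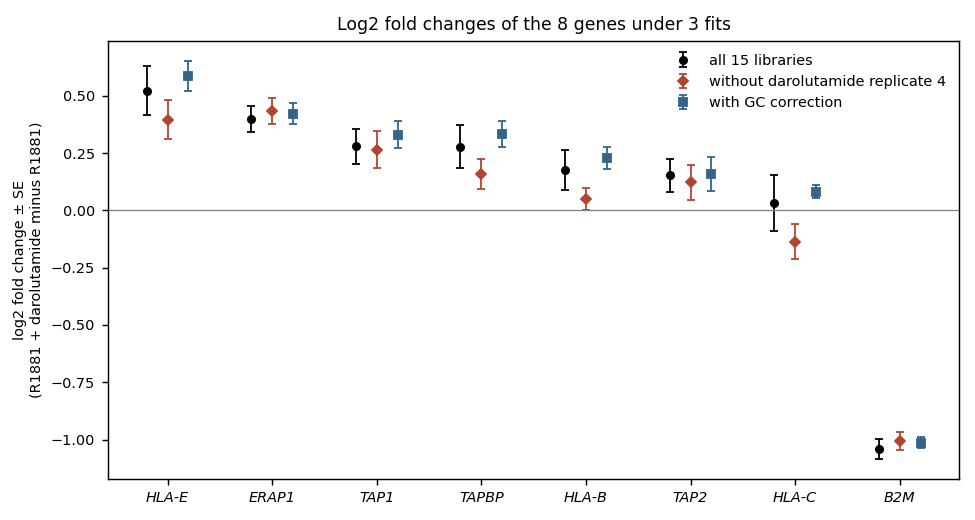
Log2 fold changes (R1881 with darolutamide minus R1881, vertical axis) of the 8 genes, with bars of 1 SE, from all 15 libraries (circles), without darolutamide replicate 4 (diamonds) and after correction for GC content (squares). B2M stays near -1.0 in all 3 fits, while HLA-C is at 0.03, -0.14 and 0.08.

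The amounts of class I partners relative to each other were compared within libraries, since a ratio of reads from 1 library does not depend on how libraries are scaled. Relative to B2M, all 3 heavy chains and ERAP1 were higher with darolutamide, by 2.11 to 2.99 times. HLA-E reads were 0.07, 0.07, 0.06, 0.12 and 0.08 per B2M read in darolutamide replicates 1 to 5, against 0.02 to 0.03 with R1881. HLA-B reads were 0.16 to 0.31 per B2M read with darolutamide and 0.07 to 0.10 with R1881. HLA-C reads were 0.24 to 0.58 per B2M read with darolutamide and 0.13 to 0.21 with R1881. The groups did not overlap for any of these ratios.

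The log2 differences of these ratios were 1.58 for HLA-E, 1.22 for HLA-B and 1.07 for HLA-C, and they were 1.42, 1.06 and 0.87 without replicate 4. For ERAP1, whose ratio to B2M was 0.13 ± 0.01 with darolutamide (SD, n = 5) and 0.05 ± 0.003 with R1881 (SD, n = 10), the log2 difference was 1.45 with and without replicate 4. Each of the 4 had p = 0.000333 in the exact two-sided permutation test, the smallest that 3003 arrangements can give, and an adjusted p of 0.000666 over the 8 ratios compared. B2M is the denominator of all 4 and was itself separated between the groups, so these ratios carry its difference and are not separate support for a change of the other gene. HLA-C, for example, did not pass by itself. Against R1881 libraries 51 to 55 or 71 to 75 alone, each also gave the smallest p of that design (0.00794 of 252 arrangements, exact permutation test).

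Among the heavy chains, HLA-E had 0.40, 0.42, 0.35, 0.40 and 0.40 reads per HLA-B read in darolutamide replicates 1 to 5, against 0.26 to 0.37 with R1881. Only replicate 3 lay within the R1881 range. The log2 difference was 0.36 (exact permutation test, adjusted p = 0.00107), with the same value to 2 decimals without replicate 4. The ratio of HLA-B to HLA-C was 0.60 ± 0.05 with darolutamide (SD, n = 5) and 0.55 ± 0.03 with R1881 (SD, n = 10), a log2 difference of 0.14 (exact permutation test, adjusted p = 0.0266). That difference did not pass against R1881 libraries 51 to 55 alone (0.12, exact adjusted p = 0.118) or 71 to 75 alone (0.17, exact adjusted p = 0.0741). TAPBP reads per TAP1 read were 2.13 ± 0.44 with darolutamide (SD, n = 5) and 2.11 ± 0.20 with R1881 (SD, n = 10), with an adjusted p of 0.9747 in the exact permutation test.

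**Figure D3:**
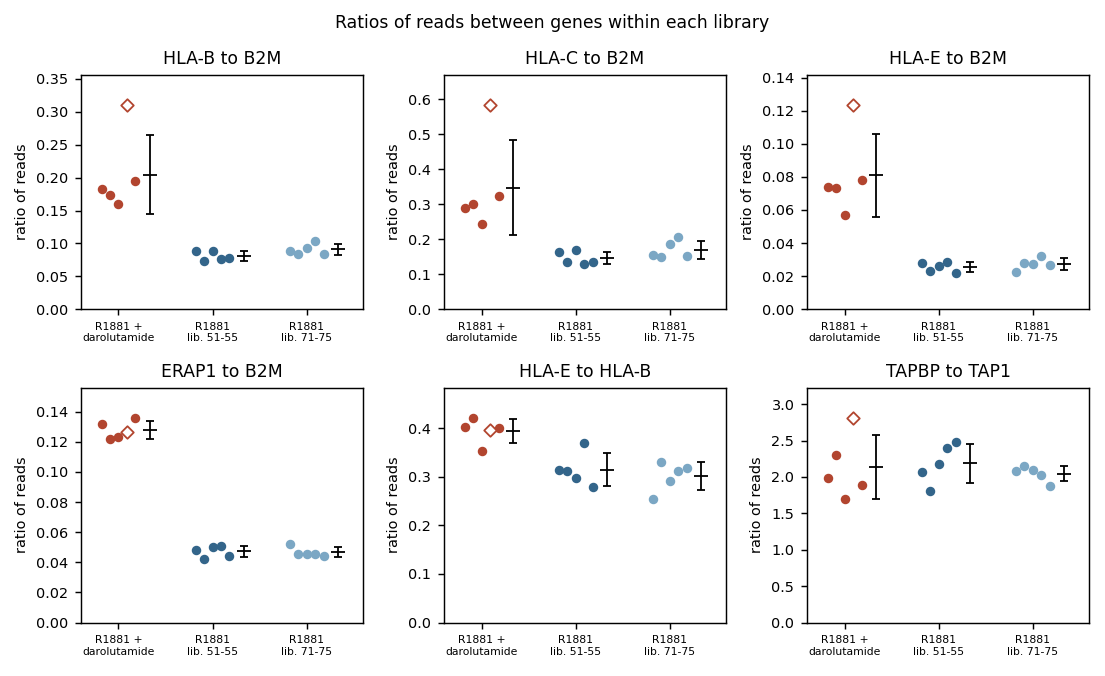
Ratios of reads between genes within each library (vertical axis, from 0), with R1881 and darolutamide on the left, then R1881 libraries 51 to 55 and 71 to 75; the open diamond is darolutamide replicate 4, and black marks are the mean ± SD of 5 libraries. All ratios to B2M are higher in every darolutamide library than in any R1881 library, whereas the ratio of TAPBP to TAP1 overlaps.

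On a scale per length (CPM per kb of exon, rescaled to the same total in each library, as TPM is, over 14686 genes with a length), B2M was the most abundant transcript of the 8 and TAP2 the least. In darolutamide libraries the levels were 274 ± 19.0 for B2M, 116 ± 34.7 for HLA-C, 37.3 ± 7.76 for HLA-B, 30.3 ± 6.13 for TAPBP, 23.3 ± 5.27 for HLA-E, 19.96 ± 1.52 for TAP1, 13.8 ± 1.00 for ERAP1 and 2.63 ± 0.22 for TAP2 (SD, n = 5). In R1881 libraries B2M stood at 560 ± 29.7, HLA-C at 110 ± 11.7, HLA-B at 32.3 ± 1.78, TAPBP at 24.4 ± 2.01, TAP1 at 16.3 ± 1.73, HLA-E at 15.7 ± 1.61, ERAP1 at 10.3 ± 0.80 and TAP2 at 2.34 ± 0.22 (SD, n = 10). Of the neighbours in this order, HLA-E and TAP1 overlapped in both groups, while HLA-B overlapped TAPBP, and TAPBP overlapped HLA-E, in darolutamide libraries alone. With the length of the canonical transcript in place of all exons, B2M stood at 585 with darolutamide and 1174 with R1881, HLA-B at 72.2 and 61.6, and HLA-C at 121 and 113, so that the distances between genes depend on the length used. On that scale TAP1 stood above HLA-E in both groups (22.7 and 17.2 with darolutamide, 18.2 and 11.4 with R1881).

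The R1881 libraries with numbers 71 to 75 were set against those numbered 51 to 55 to see how far the 8 genes move with no change of treatment. None of the 8 passed limma's test (adjusted p from 0.327 to 0.877) and edgeR also called 0 of them, while 1.1% of all genes passed limma's test in either direction (190 genes, and 169 in edgeR). None of the 8 had an unadjusted p under 0.05, against 16.6% of all genes. The largest difference was that of TAP1, at 25.8 ± 1.85 CPM in libraries 71 to 75 and 23.1 ± 2.66 CPM in libraries 51 to 55 (SD, n = 5 each; log2 difference 0.16). B2M had 540 ± 19.1 CPM in libraries 71 to 75 and 566 ± 36.6 CPM in libraries 51 to 55 (SD, n = 5 each; log2 difference -0.07). Some genes of the other lists did pass limma's test between these runs. They were KLK2 (0.40, adjusted p = 0.0003), TMPRSS2 (0.16, adjusted p = 0.0328), HM13 (0.21, adjusted p = 0.0365) and CALR (0.17, adjusted p = 0.0454). PSMB8 differed by -0.44 but did not pass (limma adjusted p = 0.162).

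Within groups, HLA-B, HLA-C, HLA-E and TAPBP varied together and B2M varied against them. After the mean of each run was taken out, the log2 values of HLA-B and HLA-C correlated at 0.96 over the 15 libraries and those of HLA-B and TAPBP at 0.92, whereas HLA-B and B2M correlated at -0.70. Correlation with the GC slope of the library was computed for the 8 genes, over the same 15 run-centred libraries. The slope is itself fitted over the genes of the table. Genes of high GC content therefore tend to follow it, and genes of low GC content tend to run against it. Such correlations were not computed over all genes, so the values below do not set the 8 genes apart from others of like GC content. It was r = 0.98 for HLA-C (rho = 0.84), 0.95 for HLA-B (rho = 0.89), 0.94 for TAPBP (rho = 0.87) and -0.80 for B2M (rho = -0.72). In permutations within runs, the adjusted p over the 8 relations was 0.000107 for r and 0.00277 for rho of HLA-C, 8e-05 and 8e-05 for HLA-B, 8e-05 and 0.00016 for TAPBP, and 0.00076 and 0.00286 for B2M. Without the 2 libraries farthest from the median slope, darolutamide replicate 4 and R1881 replicate 6, r was 0.95 for HLA-C, 0.90 for HLA-B, 0.88 for TAPBP and -0.66 for B2M.

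HLA-E gave r = 0.80 and rho = 0.60 (permutation within runs, adjusted p = 0.02 and 0.0422), and 0.53 without those libraries. For ERAP1 r was -0.58 and rho -0.54 (permutation within runs, adjusted p = 0.039 and 0.0642), and r was -0.21 without them, so that relation rests on those libraries. TAP1 and TAP2 did not pass (r = 0.41 and 0.28). The exons of HLA-C hold 60.9% GC, those of HLA-E 57.0%, those of HLA-B 54.2%, those of TAPBP 54.2%, those of TAP1 53.7%, those of TAP2 45.2%, those of B2M 41.4% and those of ERAP1 39.7%, beside a median of 47.4% over genes. TAP1 thus had nearly the GC content of HLA-B and TAPBP but a weaker correlation, whose difference was not tested. Among the 5 genes outside the list that were most like the mean of the 3 heavy chains over the 15 run-centred libraries were EIF3G, DBN1, MRPS12 and STK11 (r from 0.98 to 0.99 among 10366 genes of at least 10 CPM), with 57.0% to 65.9% GC, and none of these 4 passed the test with darolutamide.

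**Figure D4:**
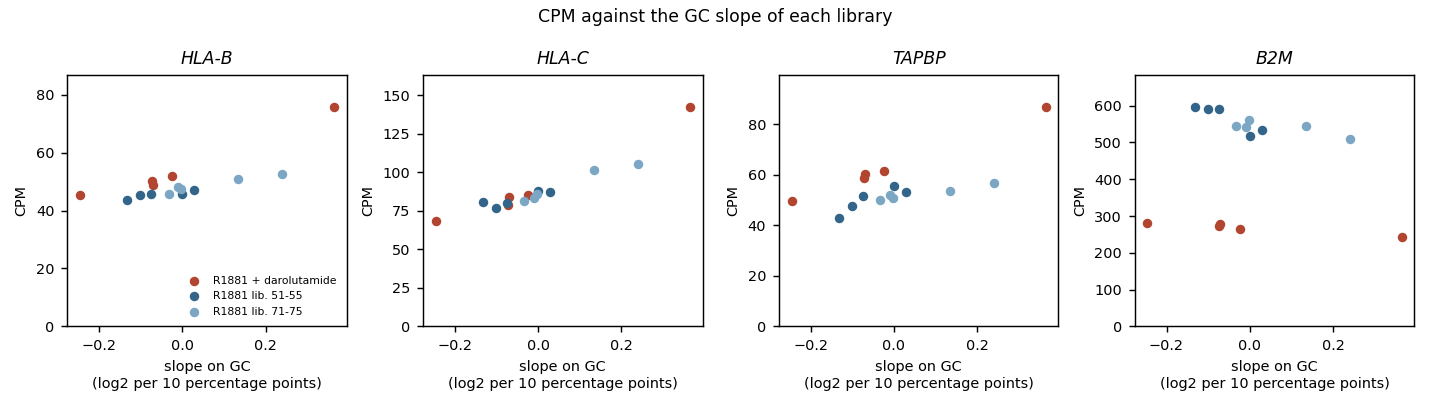
CPM of HLA-B, HLA-C, TAPBP and B2M (vertical axes) against the slope of each library's log2 values on the GC content of genes (horizontal axes, per 10 percentage points); points are libraries, coloured by group and run. Darolutamide replicate 4 is at the far right at a slope of 0.36. B2M is lower in every darolutamide library than in any R1881 library, although no R1881 library lies at the lowest or highest slopes.

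After the GC correction, which removes a smooth curve on GC content from each library, the log2 fold changes were -1.01 for B2M, 0.59 for HLA-E, 0.42 for ERAP1, 0.33 for TAP1, 0.33 for TAPBP, 0.23 for HLA-B, 0.16 for TAP2 and 0.08 for HLA-C. All but TAP2 passed limma's test, in a fit in which 31.7% of the 14686 genes with a GC value were called higher and 29.3% lower. The SE of HLA-C was 0.03 after the correction and 0.12 before it. With the correction and without replicate 4, HLA-B was at 0.15 (adjusted p = 7.64e-05) and HLA-C at 0.08 (adjusted p = 0.036), so both were then small and positive.

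Other chains of the class I fold were listed for 7 of 8 genes, of which 3 were higher, 1 was lower and 3 did not pass. Their median log2 fold change was 0.34 (0.16 without replicate 4, when 2 were higher). Beside this list and each list below, the shares over all genes were 22.8% higher and 23.7% lower. MR1, which presents vitamin B metabolites, had 22.0 to 25.0 CPM with darolutamide and 11.6 to 13.9 CPM with R1881, a log2 fold change of 0.83 (limma adjusted p = 2.57e-10). HFE, the iron regulator that binds B2M, had 5.04 to 6.19 CPM with darolutamide and 2.16 to 3.95 CPM with R1881. The groups did not overlap for MR1 or HFE, a separation seen in that direction in 10.8% of all genes. AZGP1, a secreted protein of the class I fold that does not need B2M, was lower, at 28.9 ± 2.94 CPM with darolutamide (SD, n = 5) and 90.5 ± 6.61 CPM with R1881 (SD, n = 10), a log2 fold change of -1.63.

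Of 12 partners in peptide loading and trimming, 1 was higher and 7 were lower (8 without darolutamide replicate 4), with a median of -0.24. The chaperones PDIA3 (ERp57), CANX (calnexin) and CALR (calreticulin), which fold and load the heavy chain, had log2 fold changes of -0.31, -0.25 and -0.16. CALR did not pass after the GC correction or with library totals. It also did not pass against R1881 libraries 51 to 55 alone (-0.08, limma adjusted p = 0.18). The 2 runs of R1881 libraries themselves differed in CALR by 0.17 on the log2 scale (limma adjusted p = 0.0454), with no change of treatment. HM13, the peptidase that releases the leader peptides HLA-E presents, had 129 to 152 CPM with darolutamide and 179 to 227 CPM with R1881, a log2 fold change of -0.56. NRD1 (nardilysin), a cytosolic peptidase, had a log2 fold change of -0.43. TAP1 and TAPBP were thus called higher while the general chaperones that work beside them were called lower.

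Among 4 listed genes of the immunoproteasome and its activator, PSMB8 was higher by 0.42 but at 0.82 ± 0.10 CPM with darolutamide (SD, n = 5) and 0.51 ± 0.25 CPM with R1881 (SD, n = 10), and the call was lost under 6 alternatives, DESeq2 among them. PSME1 was higher by 0.19 and PSMB10 did not pass. PSME2 was lower by 0.07, a call that was lost under 20 alternatives and a value that turned to 0.0007 with library totals. All 5 genes of the constitutive proteasome list were lower, with log2 fold changes of -0.25 (PSMB5) to -0.13 (PSMB7). That list held the catalytic subunits PSMB5, PSMB6 and PSMB7, and also PSME3 and POMP, which are not catalytic subunits. Without darolutamide replicate 4, 4 of the 5 were lower, and PSMB7 (-0.06) and PSME3 (-0.08) did not pass with library totals.

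Of 12 genes of class I transcription, 4 were higher, none was lower and 8 did not pass, with a median log2 fold change of 0.11. Over all genes 22.8% were called higher and 23.7% lower. Only the 4 called genes are described here. NFKB1, an NF-kappaB subunit, had 78.8 to 89.7 CPM with darolutamide and 38.7 to 48.3 CPM with R1881, a log2 fold change of 0.93 (limma adjusted p = 1.65e-11). NLRC5, the class I transactivator, had 1.54 to 1.79 CPM with darolutamide and 0.72 to 1.06 CPM with R1881, a log2 fold change of 0.64 (adjusted p = 3.05e-06). IRF1 had 2.98 to 4.53 CPM with darolutamide and 1.90 to 3.21 CPM with R1881, a log2 fold change of 0.51, and RFX5, a subunit of the complex at the X1 box, was higher by 0.15. The groups did not overlap for NFKB1 or NLRC5, as in 10.8% of all genes in that direction.

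Interferon signalling was listed for 10 of 13 genes, with 4 higher and 3 lower and a median of 0.00. IFNGR2 and JAK2 were higher by 0.27 and 0.29, IFNGR1 was lower by 0.32, and USP18, which restrains the interferon alpha receptor, was lower by 0.78 on the log2 scale. Of 11 listed interferon-stimulated genes, 6 were higher, 1 was lower and 4 did not pass, with a median of 0.29. Beside both lists, 22.8% of all genes were called higher and 23.7% lower. MX1, with the largest log2 fold change of its list (0.69), had 3.83 ± 0.32 CPM with darolutamide (SD, n = 5) and 2.18 ± 0.27 CPM with R1881 (SD, n = 10). Without replicate 4, 3 of the 11 were higher and 1 was lower.

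Of 10 listed genes of class I turnover and retention, 3 were higher and 3 lower (2 and 4 without darolutamide replicate 4). SUSD6, which recruits a ubiquitin ligase to class I molecules, had 68.2 to 74.4 CPM with darolutamide and 31.7 to 36.3 CPM with R1881, a log2 fold change of 1.04 (limma adjusted p = 2.01e-13), and SYVN1, a ligase of degradation from the endoplasmic reticulum, had one of -0.53. Of 6 listed ligands of the NKG2D receptor, 4 were higher (3 without darolutamide replicate 4) and none was lower, with ULBP1 higher by 0.46 and ULBP2 by 0.24. RAET1G and RAET1L were higher by 0.30 and 0.26, but these calls were lost under 12 and 9 alternatives. MHC class II was listed for 4 of 10 genes, with HLA-DQB1 and HLA-DMB higher and HLA-DMA lower (-0.56).

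**Figure D5:**
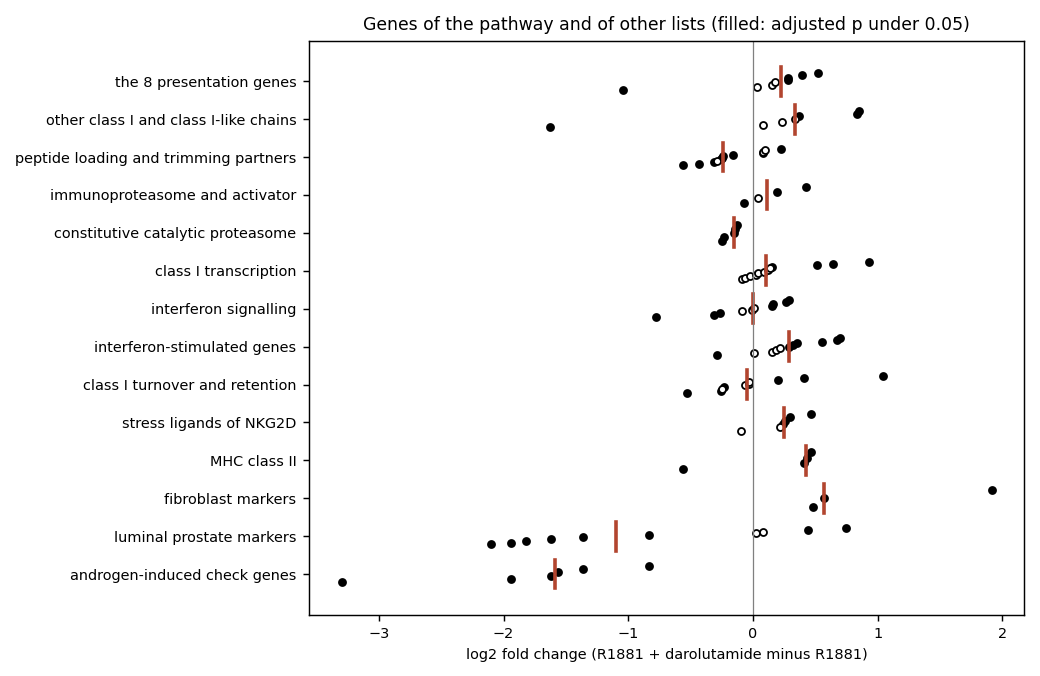
Log2 fold changes (R1881 with darolutamide minus R1881, horizontal axis) of the 8 genes and of the other lists (rows); each point is a gene, filled where the limma adjusted p was under 0.05, and the red bar is the median of the list. B2M is the left-most point of the first row at -1.04, and the genes of the loading partner and constitutive proteasome lists lie mostly below 0.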

How the data were processed

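RNA was taken from 15 libraries of LNCaP cells with a stranded poly-A kit and sequenced as single 50-base reads. According to the methods of the study, the authors used STAR on GRCh38, took gene counts from featureCounts and scaled them to CPM; the submitters' processing notes also name bcl2fastq 2.17. Versions of STAR and Subread, the annotation and the strand setting are not given in the sources used here. The deposited values are a scaled signal, since every column turned into whole reads when multiplied by 1 number (100% of values whole within 0.001 reads) and columns do not sum to a common total. Columns summed to 1005403 to 1031224 with darolutamide and to 1053406 to 1078567 with R1881. The unit was therefore not counts, and limma (3.58.1, R 4.3.3) was run with a trend on log2(CPM + 0.5) for all 17272 genes with no filter, which understates changes of low genes. The p-values reflect only the spread among these libraries, which the study calls biological replicates. The same fit with 3 groups compared the runs of R1881 libraries, and 8 ratios of recovered reads were tested by exact two-sided permutation. The alternatives were edgeR (4.0.16), also with TMM, and DESeq2 (1.42.0) on the recovered reads, voom with quality weights, pseudocounts of 0.1 and 1, a minimum mean of 1 CPM, library totals, either R1881 run alone, a replicate block, left-out libraries and a GC correction (natural spline, 5 degrees of freedom, 14686 genes with a GC value from GENCODE version 44). The correction together with darolutamide replicate 4 left out was added after the data were seen.

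The 8 genes and the other 14 lists were chosen with earlier results of these data known. Named genes are the 8; up to 4 of smallest p with a mean of at least 1 CPM from each other list; PSMB8, PSMB9, PSMB10, CALR, CANX, PDIA3, NLRC5, IRF1, HLA-F and ERAP2 where listed; and those most like the heavy chains. A few genes are not reported here, and counts of lists leave them out. PSMB9 was not listed in the table, and HLA-F had a log2 fold change of 0.24 (limma adjusted p = 0.368). Names were matched to GENCODE by symbol (13829 genes) or RefSeq synonym (857 genes). Promoters are those of RefSeq, 7 of the 8 genes matching. The limma and edgeR fits were also run on simulated counts. These held no GC slopes and no correlated genes, so they cannot show how the fits behave with either.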

Additional observations from a re-analysis of the deposited data

Results flagged for a closer look

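In groups of 5 or 10 libraries, 10 of 132 groups of values held a library far from the others by Dixon's criterion, where chance marks about 1 in 20. Darolutamide replicate 4 was marked for HLA-B at 75.6 CPM (the others 45.2 to 51.8) and for HLA-C at 142 CPM (68.3 to 85.4). It was also marked for the ratio of HLA-B to B2M at 0.31 (0.16 to 0.20) and that of HLA-C to B2M at 0.58 (0.24 to 0.32). The fibroblast gene COL1A1 stood at 20.6 CPM in the same library (5.54 to 8.86) and FKBP5 at 133 CPM (154 to 162). Among the R1881 libraries, replicate 6 was marked for PSMB10 at 1.98 CPM (0.47 to 1.07). R1881 replicate 10 was marked for PSMB8 at 1.08 CPM (0.22 to 0.66) and for RNF185 at 83.5 CPM (72.0 to 78.0), and R1881 replicate 2 for MX1 at 2.84 CPM (1.89 to 2.34). Darolutamide replicate 4 and R1881 replicate 6 also had the highest GC slopes of their groups, and the part of this in their values was not tested beyond the GC correction.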

How the results depend on the processing

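B2M was lower, and HLA-E, ERAP1 and TAP1 were higher, past the test in all 29 alternatives run for each. The count of higher genes among the 8 was 3 to 6, with 4 in the fit reported. It was 3 against either R1881 run alone and with the replicate block, where TAPBP was lost (0.23, adjusted p = 0.0696 with the block), 5 with voom weights, where HLA-B passed (0.11, adjusted p = 0.0496), and 6 with library totals (HLA-B and TAP2 added) or the GC correction (HLA-B and HLA-C added). Calls of higher genes were also more common over all genes in these 3 fits, at 27.3%, 30.8% and 31.7%. They were fewer in the fits where the count was 3. Over all 17272 genes they numbered 3363 against R1881 libraries 71 to 75, 3350 against 51 to 55 and 3084 with the block. The fit reported called 3946 higher. Leaving out each library gave 4 to 5, with HLA-B added without darolutamide replicate 3 and TAP2 (0.20, adjusted p = 0.0414) without darolutamide replicate 1; the causes were not tested. The numbers were not taken as pairs, since deviations of libraries with the same number correlated at -0.18 to 0.52. The block changed no other call among the 8; of the other named genes 6 were lost, IRF1 (0.45, adjusted p = 0.0696) among them. PSME2 turned to 0.0007 with library totals. Of all genes, 190 passed between the R1881 runs, against 125 with library totals, 669 with the GC correction and 15 to 129 when a library was left out; none of the 8 passed in any. The ratio of HLA-B to HLA-C did not pass without darolutamide replicate 1 (0.12) or 3 (0.11). Depth is lowest for TAP2 among the 8, at 118 reads at the least.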
